A study of Bos indicus x Bos taurus with 45 samples.

Results

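The tongue miRNAs of fetuses with large offspring syndrome (LOS), a fetal overgrowth condition of cattle and sheep, were compared with those of control fetuses. The members are the 16 libraries of the tongue read count table, 9 control and 7 LOS, out of 45 libraries in the series, and all 460 miRNAs which that table lists. All fetuses were Bos indicus x Bos taurus crosses at about day 105 of gestation. Control fetuses were conceived by artificial insemination and are labelled healthy, whereas LOS fetuses were conceived by assisted reproduction, so that LOS and the way of conception cannot be told apart in tongue. The control group held 5 females (controls 1 to 5) and 4 males (controls 6 to 9), and the LOS group 4 females (LOS 1 to 4) and 3 males (LOS 5 to 7). The labels give no dam, sire or litter, so p-values measure the spread between the fetuses as labelled.

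miRNAs are short RNAs that guide a silencing complex to partly complementary messenger RNAs, which are then repressed or degraded. Each is cut as a guide strand from one arm of a hairpin precursor, the other arm usually being less abundant, and many lie in clusters that are transcribed together. The fetal tongue holds skeletal muscle laid down by migrating precursors, connective tissue derived largely from neural crest, nerves, vessels and a squamous epithelium with taste organs. An enlarged tongue is a known sign of LOS and of Beckwith-Wiedemann syndrome, the human overgrowth condition to which LOS is compared.

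Listed reads ranged from 9686419 to 13822348 per library in controls and from 9357833 to 13369619 in LOS, and the lowest count of any miRNA in any library was 8. Levels are given as CPM, read counts scaled to 1000000 listed reads, after TMM scaling, with scaling factors between 0.943 and 1.071. No pair of libraries within a group was alike within sampling noise: the closest pair had a chi-square per degree of freedom of 65.5 in controls and 103 in LOS. Of the miRNAs taken as markers, all 6 of striated muscle were listed, with a summed level of 16020 to 24850 CPM in controls and 16890 to 22250 CPM in LOS. Of 7 markers of squamous epithelium, 6 were listed, at 3435 to 5861 CPM in controls and 3743 to 7078 CPM in LOS, miR-203 being the one not in the table. The hepatocyte markers miR-122 and miR-885 were not in the table either. In bulk tissue, fewer cells of a type and less RNA per cell cannot be told apart.

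No miRNA passed the test between LOS and control tongue. With edgeR's quasi-likelihood test and sex as a term, 0 of 460 miRNAs (0%) had a Benjamini-Hochberg adjusted p under 0.05, and the lowest adjusted p was 0.481, for miR-2336. At an unadjusted p under 0.05 there were 25 miRNAs, 5.43% of those tested, a share close to the 0.05 at which the threshold was set. DESeq2 called 0 miRNAs with 27 at an unadjusted p under 0.05 (lowest adjusted p = 0.279), and limma-voom called 0 with 25 (lowest adjusted p = 0.402). For no miRNA (0%) did all LOS libraries lie outside the range of the controls.

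The data bound how large the LOS effect may have been for each miRNA taken alone. The 95% interval of the LOS effect lay wholly within a 2-fold change either way, that is within a log2 difference of 1, for 440 of 460 miRNAs (95.7%). For 384 (83.5%) it lay within a log2 difference of 0.5. These intervals are each for 1 miRNA and are not adjusted for the number of miRNAs. The median half-width of the interval was 0.21 on the log2 scale, or 1.16-fold. It narrowed with abundance, from 1.25-fold for the 72 miRNAs under 10 CPM to 1.12-fold for the 90 miRNAs over 1000 CPM. Of these 90, all but miR-192 had an estimated log2 difference of at most 0.28 either way, the value of miR-140. The 20 miRNAs whose interval reached past 2-fold comprised 8 entries with temporary names, which carry no gene name, and 12 others. Those others were miR-7, miR-9, miR-10a, miR-192, miR-194, miR-215, miR-375, miR-449a, miR-449b, miR-449c, miR-1246 and miR-2419-5p.

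**Figure D1:**
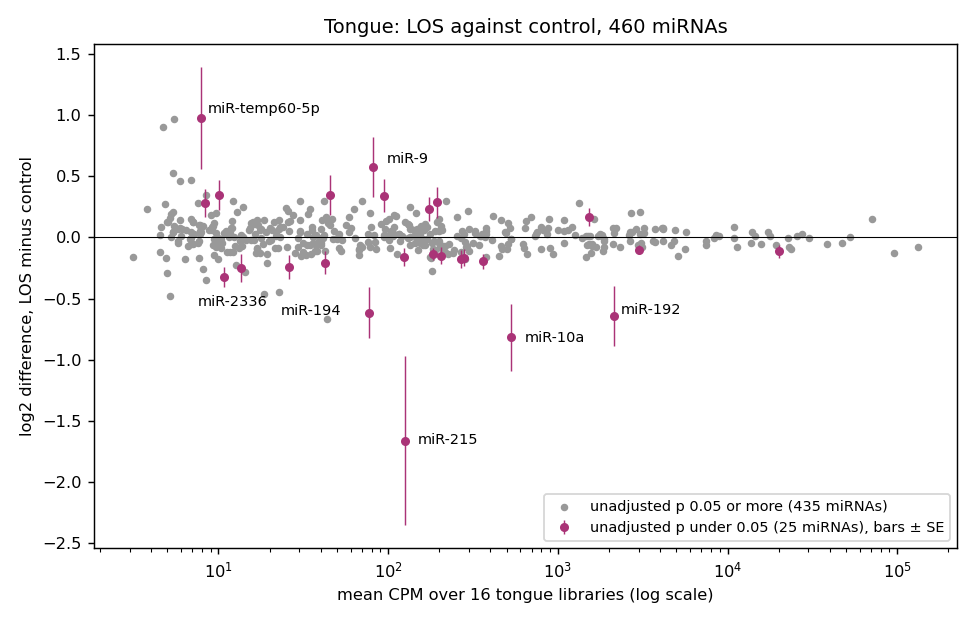
Log2 difference of LOS from control tongue (vertical axis) against the mean level over 16 libraries in CPM (horizontal axis, log scale), 1 point for each of 460 miRNAs; the 25 miRNAs with an unadjusted p under 0.05 are drawn with bars of ± SE. Most points lie close to 0, and the estimates farthest below 0 belong to miR-215, miR-10a, miR-375, miR-192 and miR-194.

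The most abundant miRNAs of the tongue were at similar levels in both groups. miR-127, a maternally expressed miRNA of the imprinted DLK1-DIO3 region, was the most abundant. Its level was 135931 ± 11161 CPM in controls (SD, n = 9) and 129144 ± 13218 CPM in LOS (SD, n = 7). The edgeR log2 difference of miR-127 was -0.07 ± 0.07 (SE), with a 95% interval from -0.22 to 0.07. miR-411a of the same region followed, at 98850 ± 8230 CPM in controls (SD, n = 9) and 90505 ± 14920 CPM in LOS (SD, n = 7).

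The third by level, miR-26a, which is known to promote muscle differentiation, was at 67828 ± 13604 CPM in controls (SD, n = 9) and 75586 ± 15984 CPM in LOS (SD, n = 7). Its log2 difference of 0.15 ± 0.14 (SE) was 0.05 ± 0.12 without LOS 3, where the miRNA reached 109577 CPM. Among the other 7 of the 10 most abundant, miR-381, miR-181a, miR-27b, miR-143, miR-410, miR-10b and miR-30a-5p, the log2 differences lay between -0.10 for miR-30a-5p and 0.03 for miR-410. The interval was widest for miR-10b, from -0.33 to 0.35, a miRNA encoded in the HOXD cluster whose control levels ranged from 17547 to 35124 CPM.

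miR-2336, a miRNA described in cattle, had the smallest p. Its level in controls was 10.3 CPM at the lowest, 11.6 at the median and 13.5 at the highest, and in LOS 7.84, 9.40 and 10.5 CPM. Of the 7 LOS libraries, 6 lay below every control, while LOS 7 lay above the lowest control, which was control 9. The log2 difference was -0.32 ± 0.08 (SE; edgeR adjusted p = 0.481). Without control 9, miR-2336 was the 1 miRNA of 460 whose groups did not overlap, and its edgeR adjusted p was 0.143. Control 9 was the only control below LOS 7, so leaving it out separates these groups by construction. Overlap was recounted without this library only, chosen after its values were seen, so the separation is no support for a difference.

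miR-484, which is transcribed at the start of the NDE1 gene and bypasses the usual cleavage step in the nucleus, ranged over 353, 381 and 408 CPM (lowest, median, highest) in controls and over 292, 339 and 373 CPM in LOS. In 5 of 7 LOS libraries it lay below every control, and LOS 2 and LOS 4 lay inside the control range. This gave a log2 difference of -0.20 ± 0.06 (SE; edgeR adjusted p = 0.843). miR-425-5p, of the miR-191 and miR-425 pair, was similarly tight within groups, at 178, 191 and 199 CPM in controls and 155, 176 and 184 CPM in LOS. It too was below every control in 5 LOS libraries, and its log2 difference was -0.13 ± 0.05 (SE; edgeR adjusted p = 0.843). The other arm, miR-425-3p, at a mean of 10.6 CPM in controls and 9.96 CPM in LOS, had a log2 difference of -0.09 ± 0.08.

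miR-25, a member of the miR-106b cluster that shares its seed with miR-92a, was at 2896, 3072 and 3336 CPM in controls and at 2751, 2920 and 2957 CPM in LOS. The highest LOS library lay below the control median, and the log2 difference was -0.10 ± 0.04 (SE; edgeR adjusted p = 0.843). miR-134-3p, from a DLK1-DIO3 miRNA known for its role in neurons, was at 28.1 ± 3.31 CPM in controls (SD, n = 9) and 23.8 ± 3.83 CPM in LOS (SD, n = 7). miR-1260b, at 283 ± 26.8 CPM in controls (SD, n = 9) and 251 ± 23.8 CPM in LOS (SD, n = 7), had counts within 6.06% of those of miR-temp72-5p in every library. These entries may count the same reads and are therefore uncertain. Both are counted among the 25 miRNAs with an unadjusted p under 0.05.

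**Figure D2:**
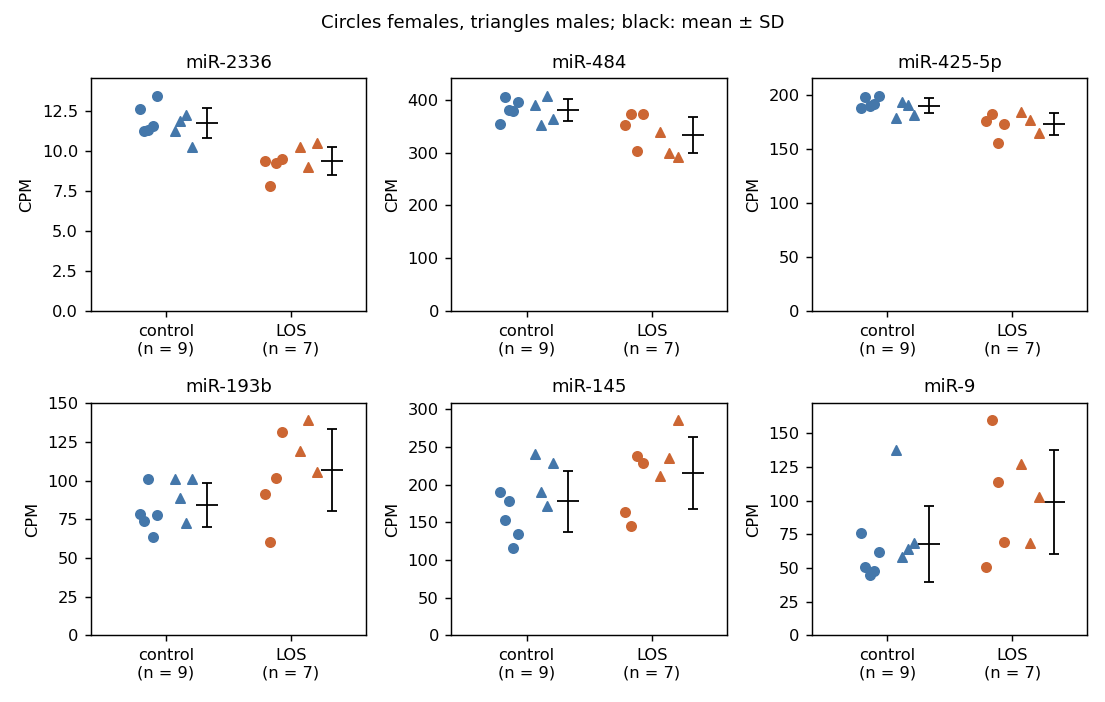
Level in CPM (vertical axis, from 0) of 6 miRNAs in each tongue library, controls at left and LOS at right, females as circles and males as triangles, with mean ± SD in black. miR-2336, miR-484 and miR-425-5p have means lower in LOS and miR-193b, miR-145 and miR-9 means higher in LOS, with overlapping groups in every panel.

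The largest estimates below 0 rested in part on 1 or 2 control libraries. miR-192, miR-194 and miR-215 are miRNAs of gut, kidney and liver epithelium, in which miR-192 and miR-215 share a seed and each lies beside a copy of miR-194. miR-192 was at 1642, 2068 and 7034 CPM (lowest, median, highest) in controls and at 1446, 1570 and 1896 CPM in LOS. The highest control was control 9, at 3.02 times the next. With it, the log2 difference was -0.64 ± 0.25 (SE; edgeR adjusted p = 0.843), and without it -0.34 ± 0.08 (adjusted p = 0.143).

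miR-194 was at 57.9, 77.6 and 221 CPM in controls and at 52.0, 58.7 and 68.0 CPM in LOS, with control 9 again the highest, at 2.53 times the next control. Its log2 difference was -0.62 ± 0.21 (SE) with control 9 and -0.37 ± 0.09 without it (edgeR adjusted p = 0.843 and 0.143). miR-215 was at 26.9, 50.1 and 1149 CPM in controls and at 22.4, 29.6 and 87.1 CPM in LOS. Here control 9 was 8.88 times the next control, and the log2 difference of -1.66 ± 0.69 (SE) became -0.68 ± 0.42 without it (edgeR adjusted p = 0.843 and 0.917). Below every control but control 9 lay 5 of 7 LOS libraries for miR-192 and 3 of 7 for miR-194. The summed level of these 3 miRNAs was 1740 to 2520 CPM in the other 8 controls, 8403 CPM in control 9 and 1531 to 2028 CPM in LOS. A further entry, miR-temp103-5p, was at 115 CPM in control 9, 6.16 times the next control. Whether RNA of another tissue had a part in control 9 was not tested.

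miR-10a, encoded in the HOXB cluster and known to repress HOX genes, ranged over 390, 499 and 1242 CPM in controls and over 265, 368 and 581 CPM in LOS. Controls 5 and 9, a female and a male, stood at 1242 and 1240 CPM, whereas the next control was at 563 CPM. In LOS, 4 of 7 libraries lay below every control and LOS 5 lay above all but those 2. The log2 difference was -0.82 ± 0.27 (SE; edgeR adjusted p = 0.843), and -0.39 ± 0.16 without controls 5 and 9 (adjusted p = 0.974). Its paralog miR-10b, with the same seed, had a log2 difference of 0.01 ± 0.16.

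**Figure D3:**
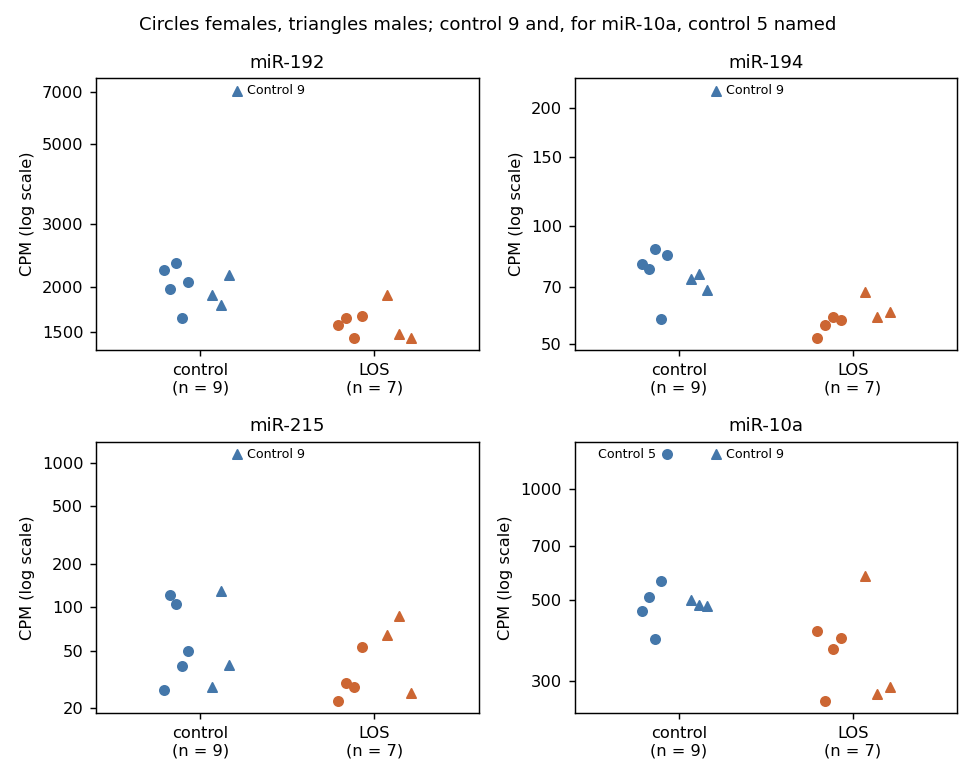
Level in CPM (vertical axis, log scale) of miR-192, miR-194, miR-215 and miR-10a in each tongue library, females as circles and males as triangles. Control 9 stands above all other libraries for miR-192, miR-194 and miR-215, and controls 5 and 9 above all others for miR-10a.

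miR-193b, known from myogenic and brown fat differentiation, was at 63.9, 78.2 and 101 CPM in controls and at 60.4, 106 and 139 CPM in LOS. It exceeded every control in 5 of 7 LOS libraries, but LOS 2 was the lowest of all 16. The log2 difference was 0.34 ± 0.14 (SE; edgeR adjusted p = 0.843). miR-221, a miRNA of endothelium and proliferating cells that represses the cell cycle inhibitor CDKN1B, was at 125, 158 and 194 CPM in controls and at 146, 203 and 215 CPM in LOS. It was above every control in 4 of 7 LOS libraries. Its log2 difference was 0.23 ± 0.10 (SE; edgeR adjusted p = 0.843), and that of its other arm, miR-221-5p, was 0.25 ± 0.12.

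miR-145, a smooth muscle miRNA, was at 116, 178 and 240 CPM in controls and at 145, 229 and 286 CPM in LOS, with 1 LOS library above every control. The edgeR log2 difference was 0.29 ± 0.13 (SE; edgeR adjusted p = 0.843), while miR-143, encoded beside it and far more abundant, was at 0.00 ± 0.08, and miR-145-3p at 0.07 ± 0.09. miR-9, a neural miRNA, was at 44.5, 62.1 and 138 CPM in controls and at 50.5, 103 and 160 CPM in LOS. Its highest control was control 6, and without that library the log2 difference of 0.58 ± 0.25 became 0.75 ± 0.21 (edgeR adjusted p = 0.843 and 0.628). The estimate for miR-9 was 0.38 without LOS 2 and 0.27 in males alone. The other miRNAs with the smallest p among those higher in LOS were miR-2285q, miR-539, miR-493-5p, miR-296-3p, miR-temp60-5p and miR-temp9-3p, each with an edgeR adjusted p of 0.843.

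miR-temp60-5p and miR-temp9-3p had the largest estimates above 0, with log2 differences of 0.98 ± 0.42 (SE) and 0.97 ± 0.46, at mean levels of 10.7 and 7.35 CPM in LOS. miR-temp60-5p was lowest of all 16 libraries in LOS 2 and highest in LOS 3, at 24.8 CPM. The LOS libraries of miR-temp9-3p lay between 2.26 and 17.6 CPM and its controls between 1.52 and 8.26 CPM. Its estimate was 0.57 without LOS 1, and that of miR-temp60-5p was 0.61 without LOS 3. In males alone the estimates were 0.13 for miR-temp60-5p and -0.01 for miR-temp9-3p.

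miR-140, a cartilage miRNA lying in an intron of WWP2, is named here after its values were seen. It ran from 1036 to 1331 CPM in controls and from 1112 to 1292 CPM in 6 LOS libraries, but stood at 3324 CPM in LOS 7. The other arm, miR-140-5p, was at 24.7 to 30.5 CPM in controls and at 67.9 CPM in LOS 7, against 32.0 CPM in the next LOS library. The log2 difference of miR-140 was 0.28 ± 0.18 (SE) with LOS 7 and -0.01 ± 0.07 without it, the other 6 LOS libraries lying inside the control range. miR-383, at 19.9 CPM, was the 1 further miRNA in LOS 7 at over 2 times the level of every other library. What set LOS 7 apart was not tested.

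miR-375, a miRNA of neuroendocrine cells, was at 8.89, 45.8 and 182 CPM (lowest, median, highest) in controls and at 11.2, 23.1 and 86.5 CPM in LOS. Its highest library, control 1, also held the highest control levels of miR-182 at 3169 CPM and miR-183 at 457 CPM, sensory miRNAs of 1 cluster, and of miR-7 at 11.5 CPM. Without control 1 the log2 difference of miR-375 moved from -0.67 to -0.02. miR-375 and miR-7 are also named after their values were seen.

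In total, 10 miRNAs had an estimated log2 difference past 0.5 either way. They were miR-9, miR-10a, miR-192, miR-194, miR-215, miR-375, miR-1246, miR-temp9-3p, miR-temp60-5p and miR-temp66-3p. miR-1246, at 4.50 ± 0.992 CPM in controls (SD, n = 9) and 6.59 ± 4.27 CPM in LOS (SD, n = 7), reached 15.3 CPM in LOS 3, and its log2 difference of 0.53 was 0.19 without that library. The spread between fetuses was alike in both groups: the median SD of log2 CPM was 0.19 in controls and 0.19 in LOS, and the SD was larger in LOS for 213 of 460 miRNAs.

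The miRNAs were next read by family, cluster and cell type, in 26 lists. Both arms of a precursor count as members, so the list of a family can hold strands without its seed. Over all 460 miRNAs, 251 estimates lay above 0 and 209 below, with a median log2 difference of 0.01. With upper quartile in place of TMM scaling the split was 312 above and 148 below, with a median of 0.06. The median was 0.012 with RLE, a further scaling, and 0.032 without scaling factors. None of these scalings moved the median down, so they hardly test whether a list above 0 with TMM stays there. No list held a called miRNA (0 of the members of each).

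The imprinted DLK1-DIO3 region, whose miRNAs are expressed from the maternal copy and supply the 2 most abundant miRNAs of the tongue, gave 79 listed members. Of these, 36 lay above 0 and 43 below, with a median log2 difference of -0.01, and with upper quartile scaling 47 above and 32 below, with a median of 0.04. Their summed level was 328595 to 418737 CPM in controls and 313525 to 408464 CPM in LOS. For 74 of the 79 the 95% interval lay within a log2 difference of 0.5, and for all 79 within 1. miR-493-5p (1458 ± 146 CPM, SD, n = 9 in controls and 1632 ± 164 CPM, SD, n = 7 in LOS) had a log2 difference of 0.16 ± 0.07, and its other arm, miR-493, of -0.11 ± 0.08.

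The miRNAs of the other imprinted loci are miR-483 in IGF2, miR-335 in MEST and miR-296 in the GNAS locus. IGF2, a growth factor gene expressed from the paternal copy, is among the genes known to be disturbed in overgrowth syndromes. All 5 listed members lay above 0 under each of 4 scalings, with a median log2 difference of 0.18. The estimate of miR-483 changed sign in 2 of 32 alternative settings. Those of miR-335 and miR-335-3p did so in 0 of 32, and that of miR-296-3p in 0 of 31. miR-296-3p was at 22.7, 37.7 and 70.2 CPM in controls and at 34.5, 54.2 and 66.1 CPM in LOS, with no LOS library above every control. Its log2 difference was 0.35 ± 0.16 (SE; edgeR adjusted p = 0.843). miR-483 was at 131 ± 17.4 CPM in controls (SD, n = 9) and 137 ± 24.4 CPM in LOS (SD, n = 7), with a log2 difference of 0.07 ± 0.10 and a 95% interval from -0.14 to 0.28. miR-335 had a log2 difference of 0.08 ± 0.08, and miR-335-3p of 0.18 ± 0.20.

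Striated muscle miRNAs, which drive and mark muscle differentiation, gave 3 of 8 members above 0 and a median log2 difference of -0.05. miR-133a was at 15951 ± 2225 CPM in controls (SD, n = 9) and 15370 ± 1213 CPM in LOS (SD, n = 7). miR-206, which marks developing and regenerating skeletal muscle, was at 681 ± 123 CPM (SD, n = 9) and 621 ± 85.7 CPM (SD, n = 7), with a log2 difference of -0.14 ± 0.11 and a 95% interval from -0.37 to 0.10. miR-1 was at -0.06 ± 0.10, and miR-208b and miR-499, which lie in slow myosin genes, at 0.19 ± 0.31 and 0.14 ± 0.26.

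Of the epithelial miRNAs, 8 of 10 lay above 0, with a median of 0.06. The squamous miRNA miR-205 was at 2129, 2968 and 3421 CPM in controls and at 2173, 2764 and 4910 CPM in LOS, where LOS 4, LOS 5 and LOS 6 exceeded every control while the LOS median was the lower one. The estimate for miR-205 was 0.21 ± 0.16 on the log2 scale (SE; edgeR adjusted p = 0.915), and 0.07 without LOS 4. The smooth muscle and mesenchymal list had 10 of 14 members above 0 and a median of 0.05.

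All 6 members of the endothelial list lay above 0 under each of 4 scalings, with a median of 0.15. Over 32 alternative settings, the estimate changed sign in 4 for miR-126-5p, 2 for miR-126-3p and 0 for miR-221. The members nearest 0 were miR-126-5p, the most abundant endothelial miRNA here, at 0.01 ± 0.07, and miR-139 at 0.01 ± 0.07, while miR-222, the cluster partner of miR-221, was at 0.23 ± 0.14. The list of red cell precursors gave 2 of 5 members above 0. Its level was mostly that of miR-486, at a mean of 19310 CPM, against 224 CPM for miR-451 and 18.4 CPM for miR-144. Their log2 differences were -0.07 ± 0.10, -0.14 ± 0.21 and -0.06 ± 0.22. Which cells the miR-486 came from was not tested. White blood cell miRNAs gave 5 of 8, with a median of 0.03. Of 13 neural and sensory members, 9 lay above 0, with a median of 0.02. miR-210, the miRNA induced by low oxygen, was at 0.08 ± 0.12.

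The list of miR-15, miR-16 and their relatives, a seed family known as brakes on the cell cycle, had all 11 members above 0. This held under each of 4 scalings, with estimates from 0.01 for miR-16b to 0.16 for miR-424-3p and a median of 0.10. Over 32 alternative settings, the estimate changed sign in 8 for miR-16b, 4 for miR-16a and 0 for miR-424-5p. The list includes the other-arm strands miR-15b-3p, miR-424-3p and miR-503-3p, which do not carry the family seed. The 95% interval of each of the 11 lay within a log2 difference of 0.5. All 7 members of the list of miR-181, a family linked to muscle and blood cell differentiation, lay below 0 under each of 4 scalings. Estimates ran from -0.10 for miR-181c-3p to -0.05 for miR-181a. Of these members, miR-181a-1-3p, miR-181a-2-3p and miR-181c-3p are other-arm strands without the family seed. Members of a family share precursors or clusters and are not independent measurements, so such counts are descriptions.

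The let-7 family and miR-98, which oppose the fetal growth genes LIN28B and HMGA2, had 11 of 16 members above 0 and a median of 0.02. let-7f was at -0.12 to 0.14 (95% interval) and let-7a-5p at -0.08 to 0.17. The miR-17 families, known for growth promotion, had 14 of 19 above 0 and a median of 0.03. The X-linked miR-532 and miR-500 cluster had 10 of 12 below 0, a median of -0.07, and its most abundant member miR-660 at 20802 ± 1185 CPM in controls (SD, n = 9) and 19246 ± 1302 CPM in LOS (SD, n = 7) (log2 difference -0.11 ± 0.05, edgeR adjusted p = 0.843). The ruminant miR-2284 and miR-2285 families had 7 of 9 above 0 and a median of 0.21, the largest of them miR-2285q at 8.98 ± 1.65 CPM (SD, n = 9) and 11.4 ± 2.46 CPM (SD, n = 7). Among 103 precursors with both arms listed, the arms had estimates of one sign in 61.

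**Figure D4:**
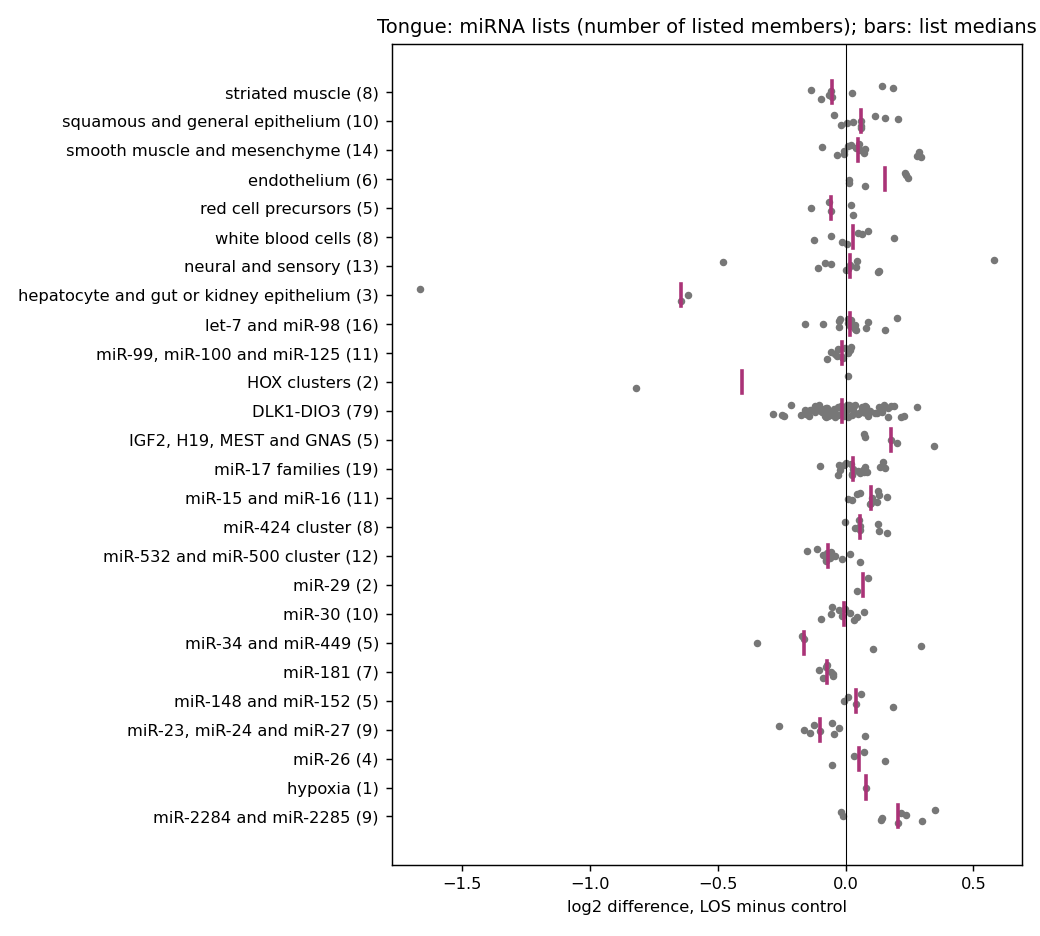
Log2 difference of LOS from control tongue (horizontal axis) for the members of 26 lists (rows, with the number of listed members), 1 grey point for each miRNA and a bar at the list median. The list medians lie between -0.16 and 0.18 apart from those of the miR-192 group at -0.64, the 2-member HOX list at -0.40 and the miR-2284 and miR-2285 families at 0.21.

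Whether the LOS effect differed between males and females was tested as an interaction. With edgeR, 0 of 460 miRNAs (0%) passed, the lowest adjusted p was 0.658, and 20 had an unadjusted p under 0.05; DESeq2 called 0 with 22 and a lowest adjusted p of 0.0529, and limma-voom 0 with 16 and a lowest adjusted p of 0.977. The smallest p in the edgeR test belonged to miR-temp66-3p. Among females it was at 1.40 to 3.13 CPM in controls and at 12.4, 1.5, 16.1 and 7.54 CPM in LOS 1 to 4, and among males at 2.77 to 6.50 CPM in controls and at 1.28, 2.68 and 3.78 CPM in LOS 5 to 7.

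In 3 of the 4 LOS females miR-temp66-3p thus exceeded every other library of the tongue table, and LOS 2 did not. Its log2 difference was 2.10 ± 0.49 (SE) in females and -0.88 ± 0.58 in males, and the difference between these was -2.97 ± 0.77 (edgeR adjusted p = 0.658). Without LOS 2, miR-temp66-3p was the 1 miRNA called (adjusted p = 0.0122). Its counts were among the lowest in the table, at a mean of 3.32 CPM in controls.

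Among named miRNAs, miR-125b and miR-99a-5p had the next smallest p with a male effect above the female effect. For miR-125b, known to restrain muscle differentiation, the log2 difference was -0.25 ± 0.10 in females and 0.18 ± 0.12 in males (edgeR adjusted p of the difference = 0.915). For miR-99a-5p it was -0.31 ± 0.16 and 0.33 ± 0.18 (adjusted p = 0.915). The other 3 named by the rule were entries with temporary names, miR-temp54-5p, miR-temp97-5p and miR-temp26-5p, each with an adjusted p of 0.915.

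Sex itself, as the term of the first fit, gave 0 called miRNAs with edgeR, DESeq2 and limma-voom, and 62 with an edgeR unadjusted p under 0.05 (13.5%, lowest adjusted p = 0.313). At that threshold more miRNAs were counted for sex than the 25 counted for LOS.

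Skeletal muscle is the sampled tissue most like tongue, and the labels give the same group and number to 4 control and 4 LOS libraries of both tissues, taken here as the same fetuses. All 8 were female by the tongue labels. The LOS effect was compared between the tissues over 414 miRNAs listed in both, with the fetus as a block. With edgeR 0 passed (0%), the lowest adjusted p was 0.691, and 26 had an unadjusted p under 0.05; limma-voom called 0 with 25. In muscle alone 0 of 439 miRNAs were called and 58 had an unadjusted p under 0.05 (13.2%, lowest adjusted p = 0.0526).

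The miRNAs with the smallest p in muscle were known from earlier results of these data, and their tongue values are set beside them as a description. miR-125b had a log2 difference of -0.55 ± 0.10 (SE) in muscle, -0.25 ± 0.10 in tongue of the same fetuses, and -0.06 ± 0.09 over all 16 tongue libraries. miR-296-3p was at 0.78 ± 0.14 in muscle, 0.49 ± 0.21 in tongue of the same fetuses and 0.35 ± 0.16 over all. miR-665, of the DLK1-DIO3 region, was at 0.41 ± 0.08, 0.26 ± 0.15 and 0.15 ± 0.11 in that order.

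For these 3 the tongue estimate had the sign of the muscle estimate and was nearer 0. Choosing miRNAs by a small p in muscle by itself favours that order, so it is not a result about tongue. None of their differences between the tissues passed (edgeR adjusted p = 0.691, 0.848 and 0.882). miR-199b, a mesenchymal miRNA, was at -0.51 ± 0.12 in muscle and -0.06 ± 0.12 in tongue of the same fetuses (adjusted p of the difference = 0.691). miR-483 was at 0.47 ± 0.13 in muscle and 0.22 ± 0.15 in tongue (adjusted p = 0.830).

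The smallest p of the tissue difference, with a tongue effect below the muscle effect, were those of miR-temp91-5p, miR-26a and miR-877. miR-26a was at 0.66 ± 0.19 in muscle and 0.21 ± 0.20 in tongue of the same fetuses, and miR-877, cut from a short intron of ABCF1, at 0.70 ± 0.22 and -0.14 ± 0.14. With a tongue effect above the muscle effect they were 3 DLK1-DIO3 miRNAs, miR-411c-5p, miR-154a-3p and miR-376e. miR-411c-5p was at -0.53 ± 0.17 in muscle and -0.06 ± 0.16 in tongue. The edgeR adjusted p of the difference was 0.691 for each of these 6. Of the miRNAs with the smallest p in tongue, miR-2336 was at 0.13 ± 0.14 in muscle and -0.36 ± 0.13 in tongue of the same fetuses (adjusted p of the difference = 0.691), and miR-10a at -0.11 ± 0.13 and -0.41 ± 0.16 (0.691).

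**Figure D5:**
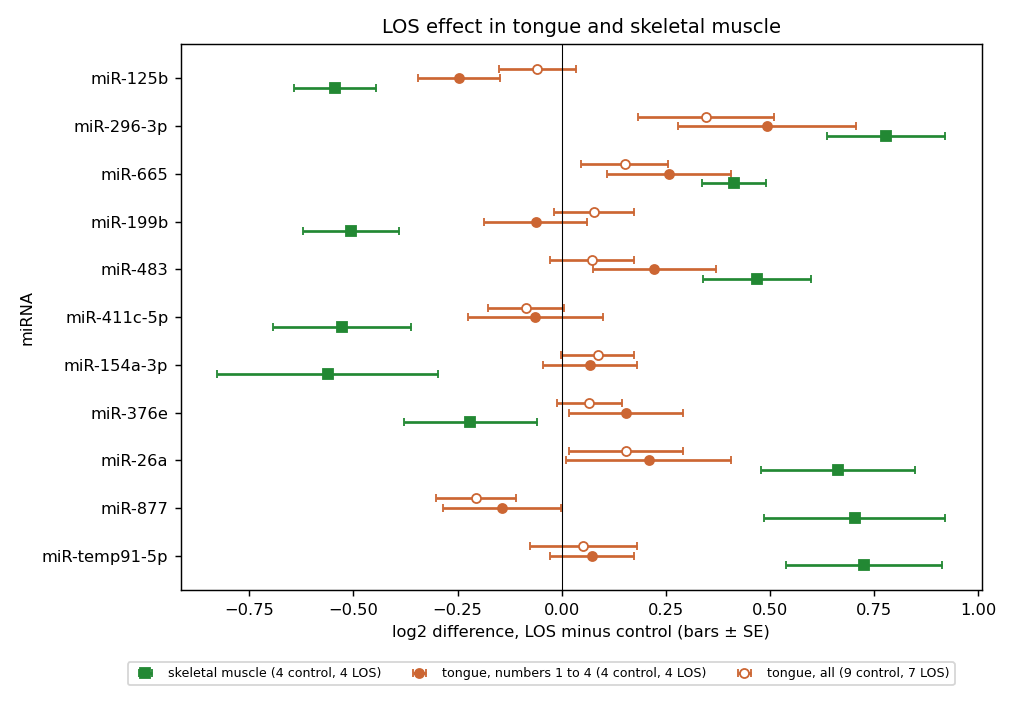
Log2 difference of LOS from control (horizontal axis, bars ± SE) in skeletal muscle (4 control, 4 LOS), in tongue of the same 8 fetuses and in all 16 tongue libraries, for 11 miRNAs (rows). For miR-125b, miR-296-3p, miR-665 and miR-483 the tongue values lie on the side of the muscle value and nearer 0. These miRNAs were chosen with the muscle results known, which by itself favours tongue values nearer 0.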

How the data were processed

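Small RNA of fetal tongue was sequenced by the submitters from 2 µg of total RNA per sample, with gel selection of fragments of 140 to 160 bp, per the labels' protocols. The deposited table holds the authors' raw counts of reads per mature miRNA and library, as whole numbers and not normalized. The submitters' processing notes name cutadapt 1.18, Bowtie and the build UMD3.1 for tongue, without saying what each was for. How reads were assigned to miRNAs, against which annotation and with which abundance filter is not given in the sources used here. 0 columns of the tongue table were left unmatched to a labelled sample.

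From these counts, edgeR 4.0.16 (R 4.3.3; filterByExpr, which removed no miRNA, TMM factors, glmQLFit and glmQLFTest) tested LOS against control with sex as a term, the sex by LOS interaction, and the tissue by LOS interaction with skeletal muscle, fetus as a block. p-values were Benjamini-Hochberg adjusted over all miRNAs tested and called at 0.05. SEs are the log2 difference over the root of the F statistic. DESeq2 1.42.0, limma-voom (limma 3.58.1), other scalings, filters and subsets of libraries were alternatives, and the scripts were tested on simulated data. Named miRNAs are those called, the 10 of smallest p in each direction where fewer than 20 were called (none of these passed), the 10 highest by mean CPM, the 3 highest of each list, their other arms, and the 3 of smallest p in each direction of each interaction, with others said to be chosen after their values were seen. The members, lists and rule were chosen with earlier results of these data known.

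Listed reads per library run from 9357833 to 13822348.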

Additional observations from a re-analysis of the deposited data

Results flagged for a closer look

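A library was marked as apart where its gap to the nearest library of its group exceeded Dixon's 95% critical share of the group's range. Over all miRNAs, 90 of 920 groups had such a library, and chance marks about 0.05 of groups. Of the 212 groups of the 106 miRNAs reported on, 25 had one, but some of these miRNAs, among them miR-140, miR-140-5p, miR-375, miR-1246 and miR-7, were chosen after their values were seen. Control 9 accounted for 7: it was highest for miR-192 (7034 CPM), miR-194 (220.6), miR-215 (1149), miR-temp97-5p (406.7) and miR-temp26-5p (25.13), and lowest for miR-199a-3p (19070) and miR-335 (1398).

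Control 1 was highest among controls for miR-182 (3169 CPM), miR-183 (457), miR-375 (181.6), miR-7 (11.5), miR-34c (109.3) and miR-148a (23750). Control 4 was highest for the endothelial miR-126-3p (3115) and lowest for miR-2285bf (25.18), control 5 was lowest for miR-1246 (1.965), and control 6 was highest for miR-9 (137.8).

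Among LOS libraries, LOS 7 was highest for both arms of the cartilage miRNA miR-140, at 3324 CPM for miR-140 and 67.92 for miR-140-5p. LOS 3 was highest for miR-26a (109600), miR-126-5p (10710), miR-19b (1135) and miR-1246 (15.33), LOS 2 for miR-99b (10610) and LOS 4 for miR-342 (1016). The causes were not tested.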

How the results depend on the processing

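The count of 0 called miRNAs for LOS against control was returned by all 32 alternatives (16 of which each left out 1 library), with a lowest adjusted p of 0.143, without control 9. When 1 library was left out, the miRNAs at an unadjusted p under 0.05 numbered 13 (without LOS 4) to 31 (without control 1 or LOS 2). An analysis paired by the label numbers (replicate block over numbers 1 to 7) also called 0, with 10 at an unadjusted p under 0.05. The correlation of deviations of same-numbered libraries ran from -0.355 to 0.272 and was over 0.1 in 2 of 7 pairs. Of the LOS libraries, 0 of 7 correlated best with their own number. Such correlations cannot settle whether the numbers pair the fetuses, since a pairing need not show in the miRNA levels. The sex interaction gave 0 to 1 calls when 1 library was left out; the 1 call was miR-temp66-3p, without LOS 2 (adjusted p = 0.0122). The tissue difference from muscle gave 0 to 1 calls when 1 fetus was left out, the 1 call being miR-temp45-3p without LOS 2 (adjusted p = 0.029). Sex itself gave 0 calls in all 18 alternatives. For single named miRNAs in LOS against control, 3076 values kept the sign and stayed uncalled, and 269 changed sign while uncalled. Leaving out controls 5 and 9 together, and recounting the overlap of groups without control 9, were chosen after seeing the data. With this spread between fetuses, an estimate for a typical miRNA had to exceed about 1.16-fold, the median half-width, to reach an unadjusted p under 0.05. This is not a limit of detection. Smaller estimates reached that threshold where the SE was small, as for miR-25 (log2 difference -0.10, edgeR unadjusted p = 0.019). Larger estimates did not pass adjustment, as for miR-215 (log2 difference -1.66, edgeR adjusted p = 0.843).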

Other observations

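Over all 460 miRNAs the same measure of a library apart, examined in 920 groups, marked 90. The counts were uneven: LOS 3 had 22, control 4 had 19, control 1 had 14 and control 9 had 13, while control 3, control 8 and LOS 1 had 0. A miRNA at over 2 times the level of every other tongue library occurred in control 9 for miR-192, miR-194, miR-215 and miR-temp103-5p, in LOS 7 for miR-140, miR-140-5p and miR-383, and in control 1 for miR-375. No other library had one.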
